A study of Mus musculus with 2 samples.

Results

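The BCL2 family genes described here are 10 genes that govern the mitochondrial route of cell death. They were taken by symbol from the array's non-control probes, 7 proapoptotic genes (Bcl2l11, Pmaip1, Bbc3, Bmf, Bid, Bad and Bax) and 3 survival genes (Bcl2, Bcl2l1 and Mcl1). They are 10 of 31993 genes or unnamed transcripts on the array and are measured by 18 of its 41174 probes. A gene counted as detected where Feature Extraction, the scanner software, marked at least 1 of its probes as well above background for at least 1 pool, on array 1 and array 2 alike. By this criterion 9 members were detected and Bad was not, against 13899 detected genes in all.

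The samples are labelled as ventral prostate of FVB/N mice at 6 months of age. The strain is also written FBV/N, and the label on collection names the dorsolateral prostate as an alternative. RNA of 6 wild-type mice formed 1 pool and RNA of 6 mice with an ARR2PB-miR32 transgene formed the other. ARR2PB is a probasin promoter that is active in prostate epithelium under androgen control, so the transgene is directed to epithelial cells and not to stroma or leukocytes. Both pools were hybridised together on 2 two-colour arrays, with the transgenic pool in Cy3 (green) on array 1 and in Cy5 (red) on array 2. The arrays carry the same RNA, so each genotype has 1 replicate. The SD given with each value (n = 2 arrays) is technical, and no test between genotypes was possible. All log2 ratios are transgenic over wild type. A gene was called where the pools differed at least 2-fold in the mean and at least 1.5-fold with the same sign on each array.

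In the mitochondrial pathway, BH3-only proteins sense stress and bind the survival proteins BCL2, BCL-XL and MCL1, which otherwise hold the pore-forming effectors BAX and BAK in check. When the effectors are freed they permeabilise the outer mitochondrial membrane, cytochrome c leaves, and the apoptosome activates caspases. In the prostate this route is known for the loss of luminal cells after androgen withdrawal. Bcl2l11, which encodes the BH3-only protein BIM, is a known target of microRNAs of the miR-25/92 family, to which miR-32 belongs.

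The seed of a microRNA, bases 2 to 8, does most of its pairing with messenger RNA, and miR-32 shares it with its relatives. RefSeq's microRNA table (GRCm38.p6) holds 6 mature mouse microRNAs with this seed. The transgene's own microRNA and a pair of relatives are shown with the seed in capitals, because known target sites, such as those of Bcl2l11, are read through it.
mmu-miR-32-5p: uAUUGCACauuacuaaguugca
mmu-miR-25-3p: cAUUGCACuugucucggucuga
mmu-miR-92a-3p: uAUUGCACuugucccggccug
The matching site in a messenger RNA reads GUGCAAU. Outside the seed the sequences diverge, so that miR-25 has the same base as miR-32 at 13 of 22 positions and miR-92a at 11 positions. The microRNA itself and the sites in the members' messenger RNAs were not analysed here.

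Of the 9 detected members, 1 was called, the proapoptotic gene Pmaip1, which was lower in the transgenic pool. Pmaip1 counted as detected only through the wild-type pool, and no member was called (0) where both pools had to be detected. None of them was called higher (0 of 9). Over all detected genes, 3.53% were called lower and 1.09% higher. With a looser rule, a 1.5-fold difference in the mean and the same sign on both arrays, Pmaip1 was still the only member called, where 7.75% of all genes were lower and 3.4% higher. Of the detected proapoptotic members 4 of 6, with Pmaip1 among them, lay below 0 on both arrays, and of the survival members 1 of 3. Over all genes 27.3% lay below 0 on both arrays and 24.6% above. The median log2 ratio was -0.21 over the proapoptotic members and -0.06 over the survival members, beside 0.01 over all detected genes. The survival median was -0.13 on array 1 and 0.27 on array 2.

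**Figure D1:**
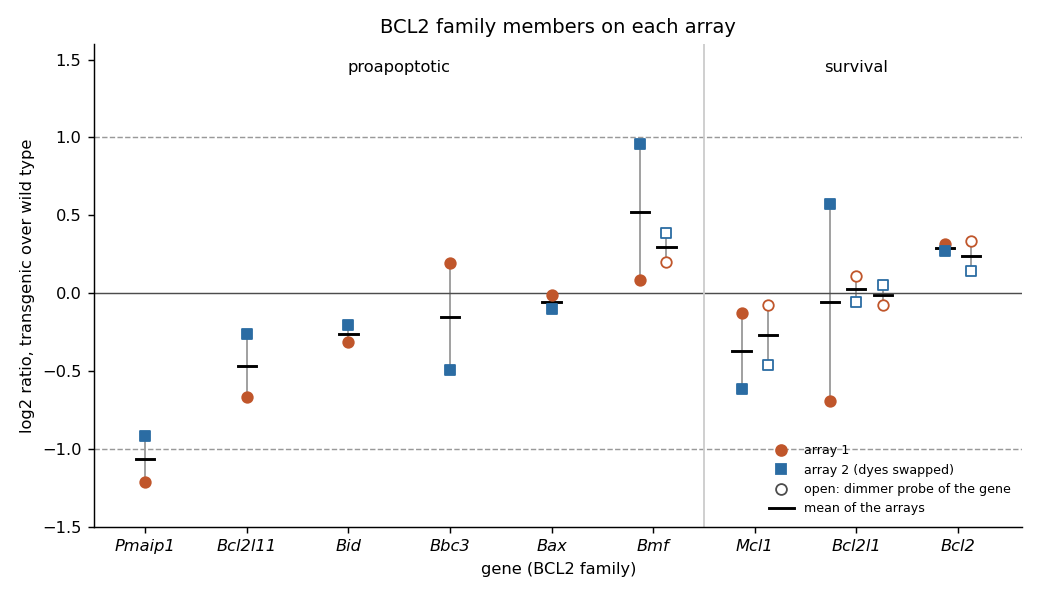
Log2 ratio of transgenic over wild type (y axis) for each detected probe of the 9 detected members (x axis), on array 1 (circles) and array 2 (squares), with the mean of the arrays as a bar. Dashed lines mark a 2-fold difference, open symbols are dimmer probes of the same gene, and Pmaip1 alone has a mean beyond a dashed line.

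Markers of leukocytes differed between the pools. Of 15 detected leukocyte markers 11 were called lower and 0 higher, from Cd79b of B cells at -3.80 ± 0.20 to the T-cell gene Cd3e at 0.01 ± 0.53. The others called included Ptprc, Cd3d, Cd2, Ms4a1, Cd52, Laptm5, Coro1a, Lyz2 and Cd74. Their summed intensity was 20143 to 26277 in the wild-type and 4057 to 4332 in the transgenic pool. Itgam was not detected and Cd68 had no matched probe. In bulk tissue, fewer cells of a type and less RNA per cell cannot be told apart. BCL2 family genes are also expressed in leukocytes, and the part of these cells in the values of Pmaip1, Bcl2l11, Mcl1 and Bcl2a1b was not tested.

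Pmaip1 encodes NOXA, a BH3-only protein that mainly binds MCL1 and is induced by p53. Its normalized intensity was 173 in the wild-type pool and 74.5 in the transgenic pool on array 1. On array 2 it was 222 and 117. The wild-type pool was thus higher on each array. Here and for the members below, such a statement compares technical readings of the same pools. Of all detected genes 27.3% lay below 0 on both arrays and 24.6% above 0 on both. The mean log2 ratio was -1.06 ± 0.21 (SD, n = 2 arrays), or 2.09-fold lower, and 3.27% of detected genes had a lower ratio. Its transgenic spot passed the background criterion on 1 of the 2 arrays. In Cy5 its median signal was 127 over a local background of 108.5, and in Cy3 it was 48 over 23. The size of the ratio therefore rests on how background was treated. With Feature Extraction's own signals Pmaip1 stood at 219 against 23.1 on array 1 and 274 against 22.2 on array 2, a ratio of -3.43 or 10.8-fold lower. Without background subtraction it was -0.97, and on array 2 alone -0.92, and in neither case was it called.

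Bcl2l11 encodes BIM, which binds all of the main survival proteins. On array 1 its normalized intensity was 334 in the wild-type pool and 210 in the transgenic pool. On array 2 it was 283 and 236. The transgenic pool was lower on both arrays. The mean log2 ratio was -0.47 ± 0.29 (SD, n = 2 arrays), or 1.38-fold lower, which is short of both rules. Of all detected genes 10.3% had a lower ratio. By processing, the mean ranged from -0.36 with Feature Extraction's signals to -0.47, and it was -0.67 on array 1 alone and -0.26 on array 2 alone. The value rests on 1 probe. The other 2 probes of Bcl2l11 were not detected, and there the pools stood at 97.0 against 88.4 and 77.3 against 76.6 on array 1, near the level of background.

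The other BH3-only genes did not share a direction. Bid encodes the protein that links death receptors to mitochondria once caspase 8 has cleaved it. Its intensity was 274 in the wild-type and 220 in the transgenic pool on array 1, and 253 and 219 on array 2. The transgenic pool was lower on both arrays, and the log2 ratio was -0.26 ± 0.07. Bbc3 encodes PUMA, a p53-induced protein that binds all survival proteins. It was higher in the transgenic pool on array 1 (327 against 286) and lower on array 2 (226 against 319), so that its ratio of -0.15 ± 0.49 has no settled sign between the arrays. With Feature Extraction's signals it was below 0 on both, at -0.10 and -0.23.

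Bmf encodes a BH3-only protein that, like one form of BIM, binds a dynein light chain. It had the highest ratio of the members, 0.52 ± 0.62, with an SD larger than the ratio. The intensity was 1414 in the wild-type and 1499 in the transgenic pool on array 1, and 1083 and 2101 on array 2. The transgenic pool was higher on both arrays, but the difference was small on array 1 (0.08) and near 2-fold on array 2 (0.96). A dimmer detected probe of Bmf gave 0.20 and 0.39, or 0.30 ± 0.13 in the mean. The remaining probe of Bmf was not detected, with 0.29 on array 1 and -0.57 on array 2.

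Bad encodes a BH3-only protein that 14-3-3 proteins hold inactive once survival kinases have phosphorylated it. It was well above background in Cy3 in both pools and in Cy5 in neither. The transgenic spot read 119.5 in Cy3 over a local background of 25, and the wild-type spot 96 over 23.5. In Cy5 the wild-type spot read 128.5 over 106.5 and the transgenic spot 134 over 95.5. Without the detection filter its log2 ratio was 0.36 on array 1 and 0.34 on array 2, while Feature Extraction's signals gave 1.51 and -1.40. The sign on array 2 thus depended on the processing, and no direction is given for Bad.

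Bax, the pore-forming effector among the members, is printed as 10 spots on each array. Its intensity was 576 in the wild-type and 571 in the transgenic pool on array 1, and 567 and 530 on array 2. The log2 ratio was -0.06 ± 0.06 (SD, n = 2 arrays), and the SD between spots was 0.18 on array 1 and 0.15 on array 2. Of its 20 spot ratios 8 were above 0 and 12 below. The difference between the pools was thus smaller than the spread between spots.

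**Figure D2:**
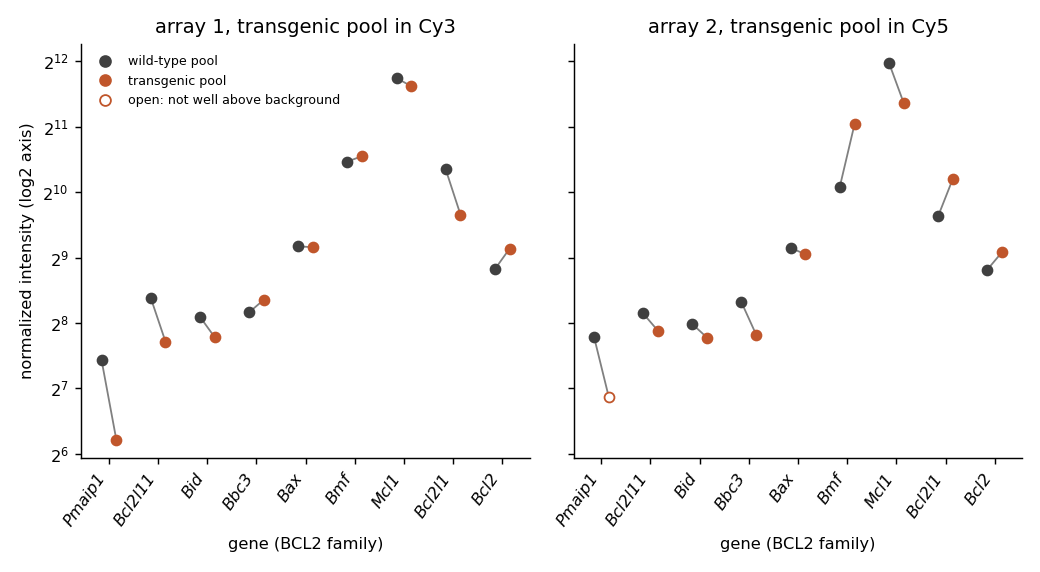
Normalized intensity (y axis, log2 scale) of the probe used for each detected member (x axis) in the wild-type pool (dark) and the transgenic pool (orange), on array 1 (left panel) and array 2 (right panel). The transgenic spot of Pmaip1 on array 2 is open because it was not well above background, and Bcl2l1 is higher in the wild-type pool in the left panel and in the transgenic pool in the right one.

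Among the survival genes, Bcl2 had the steadiest ratio. It encodes the founding survival protein of the family and is also printed as several spots. Its intensity was 453 in the wild-type and 563 in the transgenic pool on array 1, and 450 and 542 on array 2. The transgenic pool was higher on both arrays, and all 16 usable spot ratios were above 0 (9 spots on array 1 and 7 on array 2). These spots repeat the same probe on the same RNA pools and are not independent. The log2 ratio was 0.29 ± 0.03, or 1.22-fold higher. The SD between spots was 0.17 on array 1 and 0.16 on array 2. The other probe, which matches another Bcl2 transcript accession, gave 0.33 and 0.14. Of all detected genes 14.7% had a higher ratio.

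Mcl1 encodes a short-lived survival protein that NOXA and BIM bind. Its intensity was 3426 in the wild-type and 3140 in the transgenic pool on array 1, and 4025 and 2631 on array 2. The transgenic pool was lower on both arrays, with a log2 ratio of -0.37 ± 0.34 (SD, n = 2 arrays), or 1.29-fold lower. The second probe of Mcl1 gave -0.08 and -0.46, so both probes were lower on both arrays and both showed the larger difference on array 2. Of all detected genes 13.2% had a lower ratio than Mcl1.

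Bcl2l1, the gene of BCL-XL, gave opposite directions on the 2 arrays. The intensity of its brightest probe was 1301 in the wild-type and 806 in the transgenic pool on array 1, and 793 and 1179 on array 2. The pool in Cy5 was thus the higher one each time. The log2 ratios were -0.69 and 0.57, with a mean of -0.06 ± 0.89, and 4.63% of detected genes had a larger gap between the arrays. Of its usable spots 8 of 9 were below 0 on array 1 and 8 of 8 above 0 on array 2. The other 2 detected probes of Bcl2l1 lay close to 0, at 0.03 ± 0.12 and -0.01 ± 0.09. Either array alone would have given Bcl2l1 a difference about as large as that of Bcl2l11 on array 1, in opposite directions.

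BIM, NOXA and the survival proteins act by binding one another, so the ratios of their genes were also set against each other within each array. Bcl2l11 was lower than Bcl2 by this measure on both arrays, with differences in log2 ratio of -0.98 and -0.53 (mean -0.76 ± 0.32). Against Mcl1 the difference was -0.54 on array 1 and 0.35 on array 2, and against Bcl2l1 it was 0.02 and -0.84. Pmaip1 against Mcl1 gave -1.09 and -0.30, but under median centring Pmaip1 (-1.33) lay above Mcl1 (-1.53) on array 2, where its transgenic spot was not above background. Bax against Bcl2 gave -0.33 and -0.37. These differences show unequal ratios of genotypes and say nothing of the amounts of one transcript against another.

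**Figure D3:**
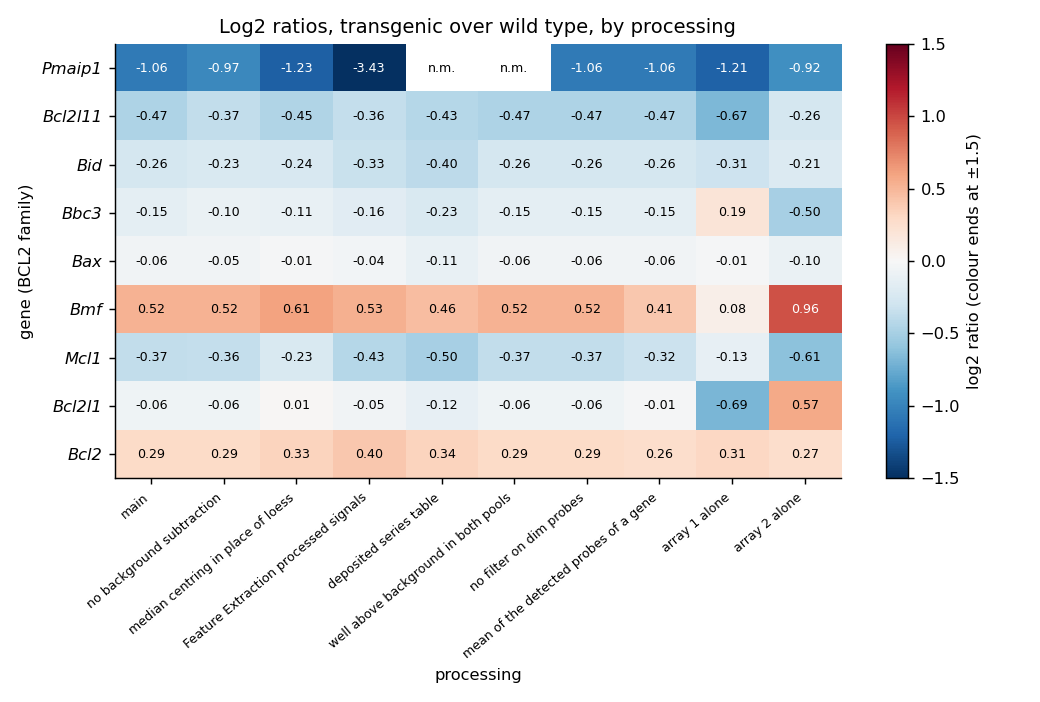
Log2 ratio of transgenic over wild type for each detected member (rows) under the main processing, the 7 other ways of processing or detection, and each array alone (columns). Red is higher and blue lower in the transgenic pool, n.m. marks a gene not measured under that setting, and each gene except Bbc3 and Bcl2l1 has the same sign in every column that measures it.

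The scaling of the arrays matters for the directions given above. Centring each array on its median, in place of loess, left the detected genes at a median of 0.81 on array 1 and -0.74 on array 2. The per-array values of most members then took opposite signs, with Bcl2l11 at 0.05 and -0.95, Bcl2 at 1.25 and -0.59 and Mcl1 at 1.06 and -1.53. Set against those medians, Bcl2l11 lay below and Bcl2 above on both arrays. Mcl1 lay above the median on array 1 and below it on array 2. Pmaip1 stayed below 0 on both (-1.13 and -1.33), and Bmf above 0 (1.20 and 0.02). The means of the arrays shifted less and kept their sign for the detected members except Bcl2l1, which moved from -0.06 to 0.01.

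Other genes of the pathway were taken from 9 lists of 74 genes, of which 61 were detected. Of these 3 were called higher and 2 lower, or 4.92% and 3.28%, beside 1.09% and 3.53% of all genes. Their median log2 ratio was 0.04. All of the calls beside that of Pmaip1 fell on relatives of BCL2, on 1 inhibitor of caspases and on 1 adaptor.

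Of the relatives of the members, 5 proapoptotic genes, 2 survival genes and 4 of less settled role were detected. Among these 2 were called higher and 1 lower, beside 1.09% and 3.53% of all detected genes. Bcl2l15, a less studied BCL2-like gene known from the intestine, had an intensity of 272 in the wild-type and 1500 in the transgenic pool on array 1, and 278 and 1095 on array 2. Its log2 ratio was 2.22 ± 0.34, or 4.66-fold higher. Bcl2l14, a BCL2-like gene with a BH3 motif, was at 414 and 946 on array 1 and 456 and 874 on array 2. It was called higher at 1.07 ± 0.18, while its other probe gave 0.81 and array 2 alone 0.94, and it was not called under median centring. Both of these genes passed the background criterion in each pool and on each array. The effector Bak1 was not called, at -0.34 ± 0.04, and its other probe gave 0.01. Bok and Hrk gave no value.

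Bcl2a1b, a survival gene of the A1 group that is typical of blood cells, was lower. It stood at 583 in the wild-type and 108 in the transgenic pool on array 1, and at 672 and 160 on array 2, with a log2 ratio of -2.25 ± 0.25, or 4.76-fold lower, on the same side as the 14 of 15 leukocyte markers that lay below 0 on both arrays. In the transgenic pool it passed the background criterion on 1 of the 2 arrays. The mouse has several nearly identical A1 genes, so the signal cannot be given to 1 of them. The survival gene Bcl2l2, which encodes BCL-W, was at -0.04 ± 0.38 and was not called.

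Below the family, caspases and mitochondrial factors gave no call (0 of 7 and 0 of 9 detected). The list medians were 0.11 for the apoptosome and caspases and 0.15 for mitochondrial factors. Casp9, the initiator caspase of the apoptosome, had the lowest ratio at -0.90 ± 0.65, with -1.36 on array 1 and -0.44 on array 2. The nuclease gene Endog was at 0.49 ± 0.02 and the channel gene Vdac1 at -0.02 ± 0.39. Apaf1 was not detected.

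Inhibitor of apoptosis genes lay below 0 on both arrays in 5 of 5 detected cases, beside 27.3% of all detected genes, with a median of -0.24. Naip1 and Naip2 were not detected. Of the detected genes of this list Birc5 was called lower. It encodes survivin, which serves in cell division as well as in caspase control, and it stood at 611 and 210 on array 1 and 603 and 257 on array 2, a log2 ratio of -1.39 ± 0.22. Birc6 had the highest ratio of this list, -0.15 ± 0.21, and was barely below 0 on array 1 (-0.0055). In the death receptor list Tradd, the adaptor of the TNF receptor, was called higher at 1.09 ± 0.39, with 0.81 on array 1 alone, and the call was lost with Feature Extraction's signals and with median centring. Fas was at -0.50 ± 0.41 and the list median was -0.05.

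Transcription factors that act on BH3-only genes gave no call among 8 detected genes (0 called), and the list median was -0.10. Trp53, the regulator of Pmaip1 and Bbc3, was at -0.09 ± 0.11, while its other probe gave 0.34. E2f1 had the lowest ratio at -0.38 ± 0.36 and Trp73 the highest at 0.27 ± 0.01. The forkhead genes Foxo3 and Foxo4, known activators of Bcl2l11, were not detected, and Foxo1 was at -0.12 ± 0.12. Among 15 binding partners and turnover factors none was called (0 of 15), with a median of 0.11. The kinase gene Pim1, whose product phosphorylates BAD, was at -0.76 ± 0.31, and Ywhaz, a 14-3-3 gene, at 0.48 ± 1.12. In the transgenic pool Pim1 passed the background criterion on 1 of the 2 arrays. Its mean ratio was lower still with Feature Extraction's signals, so its size rests on how background was treated. With those signals 1 gene of this list was called, as was 1 on array 1 alone. The names of Trp53 and Foxo1 were added after their values were seen, since they bear on the members.

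**Figure D4:**
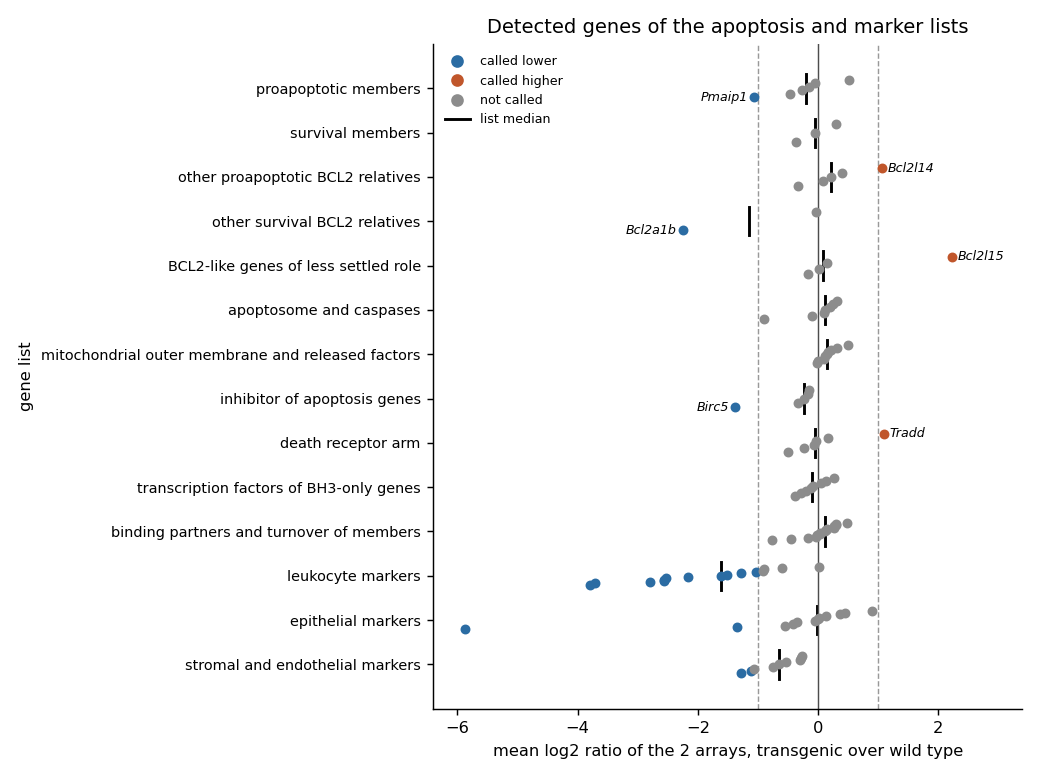
Mean log2 ratio of the 2 arrays (x axis) for each detected gene of the member lists, 9 other pathway lists and 3 lists of cell type markers (y axis), with the list median as a bar. Blue points were called lower, orange points higher and grey points neither, and the leukocyte markers have the lowest median of the markers, -1.61.

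Epithelial and stromal markers varied as well. Among 12 epithelial markers Spink1 (-5.88 ± 0.21) and Sbp (-1.35 ± 0.55) were called lower, the highest ratio was that of Epcam at 0.90 ± 0.11, and the median was -0.03. Their summed intensity was 832493 in the wild-type and 190307 in the transgenic pool on array 1, of which Spink1 held 468858 and 7180, and Sbp 232383 and 69492. On array 2 the sums were 703905 and 236080. The prostate products Sbp, Spink1 and Pbsn passed the background criterion in each pool. Among 9 detected stromal markers Vim (-1.29 ± 0.06) and Col3a1 (-1.11 ± 0.05) were called lower, the highest ratio was that of Tagln at -0.27 ± 1.46, and the list median was -0.65. By array, this median stood at -0.28 on array 1 and -1.14 on array 2. The summed intensity was higher in the transgenic pool on array 1 (36481 against 32322) and lower on array 2 (24431 against 66994). Under median centring neither Vim nor Col3a1 was called, nor was Sbp (-0.97). The endothelial genes Pecam1 and Cdh5 were not detected. The part of these cells in the members' values was not tested.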

How the data were processed

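Agilent Feature Extraction 11.0.1.1 read both arrays, with the annotation build mm9, per the file headers. The deposited scanner files hold median spot and background intensity per dye, not normalized. They also hold processed intensity, background-subtracted and dye-normalized per the file headers, and a log10 ratio of red over green. The deposited series table holds centred log2 ratios. Set against the scanner files, they equalled Feature Extraction's ratios minus a constant per array and ran as transgenic over wild type.

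Background was corrected with normexp (offset 50) and each array was normalized by loess, with limma 3.58.1 in R 4.3.3. The offset makes ratios of dim probes smaller. Control and outlier spots had weight 0. Normalized intensity is the level per dye after loess and Aquantile and includes the offset. Spots of a probe were averaged, and the brightest detected probe stood for a gene. Symbols came from RefSeq (GRCm38.p6) by accession, for 27808 of 41174 probes. That build differs from the files', so no coordinates are given. No spot was saturated (0 on each array). The number of arrays limits the precision.

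All members are named, and of each other list the called genes and those with the highest and lowest ratio. A few genes that this rule names are not reported here. Members and lists were chosen with earlier results of these data known. The processing was run on simulated arrays. The changed probes there were brighter than that of Pmaip1 and had larger changes, so the simulation does not bear on its call.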

Additional observations from a re-analysis of the deposited data

How the results depend on the processing

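Pmaip1 was the 1 member called in the main processing, with median centring, with Feature Extraction's signals, with dim probes kept in, with probes averaged per gene, on array 1 alone and by the 1.5-fold rule. No member was called (0) without background subtraction, in the deposited series table, with detection in both pools or on array 2 alone. The series table and detection in both pools leave out its probe. Leaving out an array thus gave 0 or 1 calls. Of the members, 5 lay below 0 on both arrays, and 1 did so under median centring, where the detected genes themselves were shifted in opposite directions on the arrays. The count was 4 without background subtraction, where Bax was at 0.04 on array 1, and 4 with detection in both pools. With Feature Extraction's signals it was 5, with Bbc3 below 0 on both arrays and Bax at 0.01 on array 1. The proapoptotic median of -0.21 was -0.15 both with dim probes kept in and with detection in both pools, where Bad enters or Pmaip1 leaves. The survival median of -0.06 was -0.13 on array 1, 0.27 on array 2 and 0.01 under median centring. Over all detected genes, 151 were called higher and 491 lower. With Feature Extraction's signals these counts were 309 and 938, with median centring 99 and 405, with detection in both pools 126 and 267, and on single arrays 450 and 271 for higher and 599 and 589 for lower. Of the genes called outside the members, Bcl2l15 and Birc5 were called under each setting. Bcl2a1b was called wherever it was measured. The call of Bcl2l14 was lost with its probes averaged (0.94), on array 2 alone (0.94) and with median centring, and that of Tradd in the series table (0.95), on array 1 alone (0.81), with median centring and with Feature Extraction's signals. The 11 leukocyte calls became 5 where both pools had to be detected and 6 in the deposited table, which leave out markers at background in the transgenic pool. Red signals lie closer to background than green ones, which limits Pmaip1, Bad and the dimmer probes of Bcl2l11.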
